A study of Mus musculus with 8 samples.

Results

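The hippocampus holds successive fields of pyramidal neurons, CA1, CA2 and CA3, and each field expresses genes that the neighbouring ones express less. CA3 neurons receive mossy fibres from the dentate gyrus and excite CA1, CA1 is a main output of the circuit, and CA2 is a small field between them known for a role in social memory and for resistance to some forms of synaptic plasticity. The genes described here are 10 such subfield markers, taken by name from the 17171 genes of the authors' deposited table. The CA1 markers are Wfs1, Fibcd1, Pou3f1 and Mpped1, and the 6 markers of CA2 and CA3 are Amigo2, Rgs14, Bok, Map3k15, Pcp4 and Coch. All 10 were measured.

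The samples were 4 hippocampi of the SUMO2-cKO genotype (Sumo2 f/f;Emx1-Cre) and 4 of the Control genotype (Sumo2 f/f), all from 2-month-old mice of the C57BL/6 strain, so both groups carry the floxed Sumo2 alleles. Sumo2 encodes a small ubiquitin-like protein that cells attach to other proteins, and its effect on RNA levels was the question of the series. Emx1-Cre recombines DNA in the lineage of the dorsal forebrain, which gives rise to pyramidal neurons, dentate granule cells and part of the glia, while most interneurons come from elsewhere and would keep Sumo2. Only the SUMO2-cKO genotype names Emx1-Cre, so an effect of Cre itself cannot be told apart from loss of Sumo2. Separate animals, sex, litter and batch are not stated in the labels, so the spread behind the p-values may be technical.

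Every change below is the authors' log2 fold change of SUMO2-cKO (named KO in the table) over Control (named WT), with a standard error (SE) derived from their Wald statistic, and genes with an adjusted p under 0.05 are named as called. Calls numbered 257 across the authors' deposited table, 166 higher and 91 lower, and the median log2 fold change of all genes was -0.00022. For Sumo2 the group labelled SUMO2-cKO was not lower, at 0.42 (SE 0.252, adjusted p = 0.761) by the authors' deposited table, so the targeted gene does not check the genotype labels and directions are given for the groups as labelled. Values per sample and depth per library were not analysed here. In whole tissue, fewer cells of a type and less RNA per cell cannot be told apart.

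Of the 10 subfield markers 1 was called, Bok, which was lower in the SUMO2-cKO group, against 1.5% of all genes called in either direction and 0.53% called lower. Bok encodes a member of the BCL-2 family, the regulators of programmed cell death, and marks CA3 within the hippocampus. The authors' deposited table gives Bok (ENSMUSG00000026278, chromosome 1, 93685660 to 93695764, plus strand; all coordinates are GRCm38) a log2 fold change of -0.28 (SE 0.0783, DESeq2 adjusted p = 0.0260), which is a level of 0.821 times that of Control with a 95% interval of 0.738 to 0.913. By p-value it ranked 187 of 17171 genes. The call was lost with a minimum fold of 1.5, which Bok does not reach, and with Bonferroni adjustment.

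Oligodendrocyte markers had negative values beside that of Bok. By the authors' deposited table all 11 measured genes of that list were below 0, between -0.55 and -0.39 with a median of -0.43, and 3 were called, Ermn at -0.55 (SE 0.121), Aspa at -0.50 (SE 0.136) and Mog at -0.45 (SE 0.129). All 3 calls were lower, against 0.53% of all genes, and 10 of the 11 had an unadjusted p under 0.05, against 8.37% of all genes. Ermn is a cytoskeletal protein of myelinating cells, Aspa cleaves N-acetylaspartate and Mog lies on the outer surface of myelin. The part of these cells in the value of Bok was not tested.

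**Figure D1:**
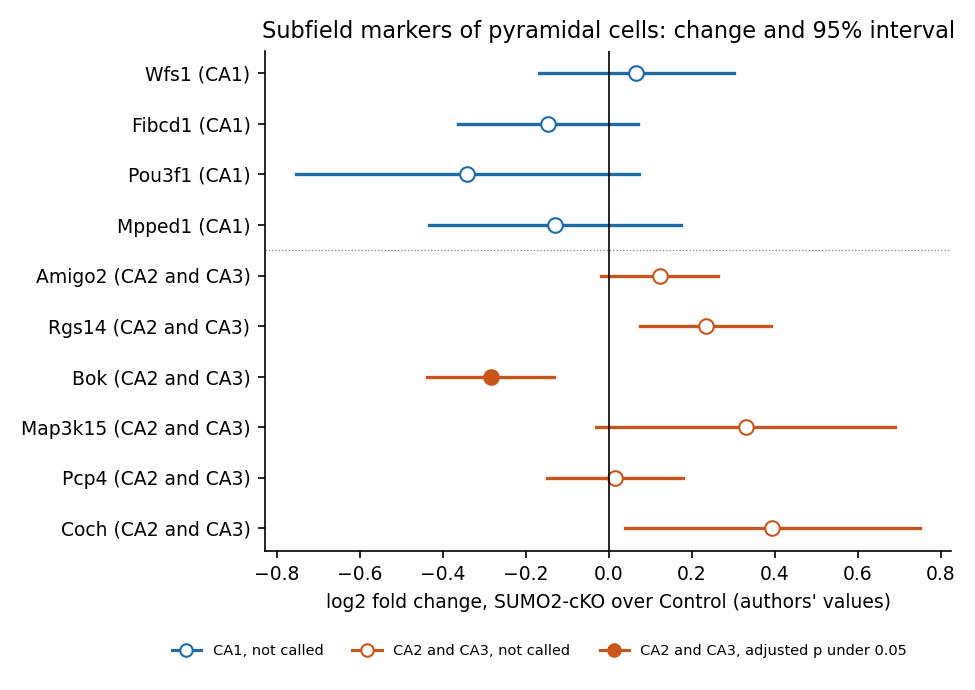
Authors' log2 fold change of SUMO2-cKO over Control on the horizontal axis for the 10 markers, as points with 95% intervals from the SE. The filled point marks Bok, the 1 gene called at an adjusted p under 0.05. Of the 4 CA1 markers 3 lie below 0, and of the 6 markers of CA2 and CA3 5 lie above 0.

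None of the 4 CA1 markers was called, at an adjusted p or at an unadjusted p under 0.05, and 3 of the 4 were below 0 by the authors' deposited table. Their values ran from -0.34 to 0.07 with a median of -0.14. Pou3f1 (ENSMUSG00000090125, chromosome 4, 124656807 to 124660655, plus strand), a POU domain transcription factor, had the most negative value of the 10 markers, in the authors' deposited table -0.34 (SE 0.210, adjusted p = 0.797). Its 95% interval, -0.75 to 0.07, covers both a level of 0.594 times that of Control and one of 1.05 times. Fibcd1 (ENSMUSG00000026841, chromosome 2, 31813290 to 31846005, minus strand), a membrane receptor for acetylated sugars, stood at -0.15 (SE 0.111, adjusted p = 0.926) by the authors' deposited table.

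Mpped1 (ENSMUSG00000041708, chromosome 15, 83779467 to 83858494, plus strand) encodes a protein with a metallophosphoesterase domain. It stood at -0.13 (SE 0.155, adjusted p = 0.9996) by the authors' deposited table. Wfs1 (ENSMUSG00000039474, chromosome 5, 36966104 to 36989205, minus strand), the endoplasmic reticulum membrane protein wolframin, was the 1 CA1 marker with a positive value, 0.07 (SE 0.120, adjusted p = 0.9996) by the authors' deposited table. Each of the 4 had an SE above the median of all genes, 0.0940, and each 95% interval included 0. With those SEs a log2 change of at least 0.374 for Fibcd1, 0.403 for Wfs1, 0.522 for Mpped1 and 0.709 for Pou3f1 would have been needed for a call, since the smallest statistic among called genes was 3.37 in size.

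Of the 6 CA2 and CA3 markers, 5 had a positive log2 fold change by the authors' deposited table and none of these was called. The range was -0.28 to 0.39 with a median of 0.18. Rgs14 (ENSMUSG00000052087, chromosome 13, 55369732 to 55384687, plus strand), a regulator of G protein signalling that limits long-term potentiation in CA2, stood at 0.23 (SE 0.0807, adjusted p = 0.147) by the authors' deposited table. That is a level of 1.18 times that of Control with a 95% interval of 1.05 to 1.31, and its unadjusted p was 0.00379 by the authors' DESeq2 fit. Coch (ENSMUSG00000020953, chromosome 12, 51593341 to 51605771, plus strand), the secreted matrix protein cochlin and a CA3 marker, had the largest value of the 10 in the authors' deposited table, 0.39 (SE 0.181, unadjusted p = 0.0298, adjusted p = 0.472). Rgs14, Coch and Bok were the 3 of 10 markers with an unadjusted p under 0.05, against 8.37% of all genes.

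Map3k15 (ENSMUSG00000031303, chromosome X, 159988433 to 160123351, plus strand), a kinase at the head of MAP kinase cascades and a CA2 marker, stood at 0.33 (SE 0.184, adjusted p = 0.689) by the authors' deposited table. Amigo2 (ENSMUSG00000048218, chromosome 15, 97244125 to 97247287, minus strand), a cell adhesion protein with leucine-rich repeats and an immunoglobulin domain, had the smallest SE of the 10 and a value of 0.12 (SE 0.0718, adjusted p = 0.742) by the authors' deposited table. Pcp4 (ENSMUSG00000090223, chromosome 16, 96467606 to 96525793, plus strand), a small protein that modulates calmodulin, was closest to 0, at 0.02 (SE 0.0840, adjusted p = 0.9996) by the authors' deposited table, with a 95% interval of 0.902 to 1.13 times the Control level. The markers of CA2 therefore ranged from a value near 0 for Pcp4 to the wide interval of Map3k15, -0.03 to 0.69. The CA3 markers Bok and Coch had opposite signs.

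**Figure D2:**
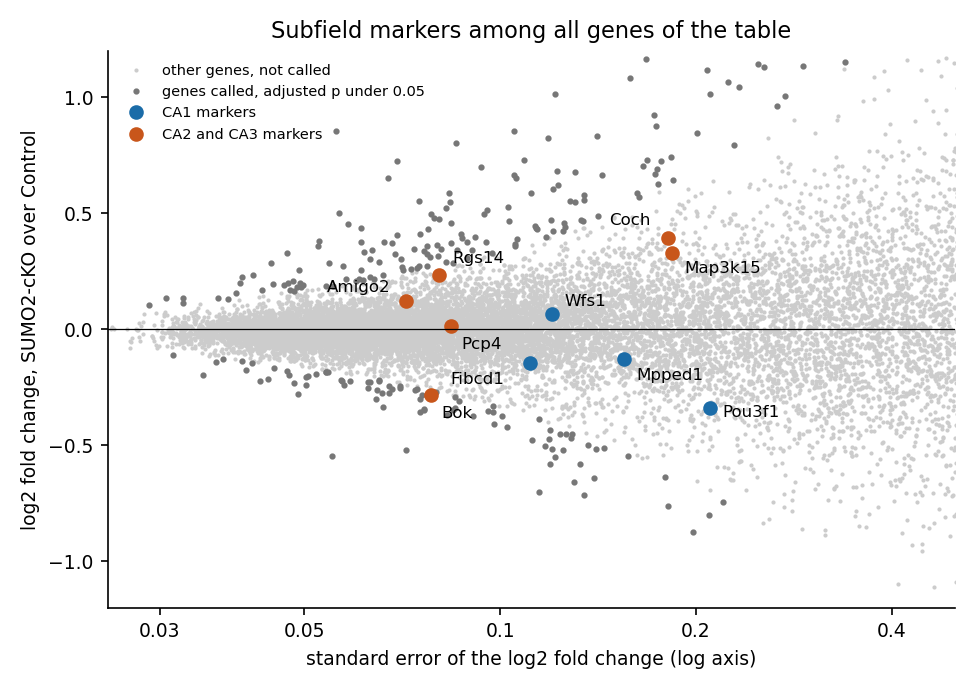
Authors' log2 fold change of SUMO2-cKO over Control (vertical axis) against its SE (horizontal log axis) for the 15626 genes within the plotted range, with 1545 genes outside it. Dark grey points are called genes, and the 10 markers are coloured by subfield. Bok, at -0.28, lies just past the size of log2 change, 0.264, that a call needs at its SE. Coch, Map3k15, Mpped1 and Pou3f1 lie to the right, where the SE is 0.155 to 0.210.

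Set side by side, the median log2 fold change was -0.14 for the 4 CA1 markers and 0.18 for the 6 CA2 and CA3 markers in the authors' deposited table, a difference of -0.32. No test of this difference was made, since the markers were chosen with earlier results known and share the same 8 libraries. Of the 24 differences between a CA1 marker and a marker of CA2 or CA3, 20 were below 0 and 4 above. Of these 4, 3 were differences from Bok. The 24 differences ran from -0.73 for Pou3f1 minus Coch to 0.35 for Wfs1 minus Bok. With the SEs of both genes combined as if independent, 10 of the 95% intervals lay below 0 and 1, that of Wfs1 minus Bok, above 0. Each marker enters several of the 24 differences, so the counts are not counts of separate results. How the errors of the genes vary together cannot be had from the table, so these intervals are a description. For Fibcd1 minus Rgs14 the difference was -0.38 (SE 0.137), and for Wfs1 minus Pcp4 it was 0.05 (SE 0.146).

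Further subfield markers did not show this difference, with a median of 0.01 for both CA1 and CA2. How specific these further genes are to a subfield, and whether other cells express them, was not tested. Of 9 further CA1 markers 5 had a positive log2 fold change and none was called by the authors' DESeq2 fit. At an unadjusted p under 0.05 there were 2 higher and 1 lower of the 9, against 8.37% of all genes in either direction. Spink8, a protease inhibitor, stood at 0.33 (SE 0.153, adjusted p = 0.489) and Man1a, a Golgi mannosidase, at -0.24 (SE 0.117, adjusted p = 0.572) by the authors' deposited table. Among 10 further CA2 markers 5 were positive and 1 was called higher. This was Dusp5, a phosphatase that acts on ERK kinases, at 0.41 (SE 0.0693, DESeq2 adjusted p = 2.2e-06) by the authors' deposited table, against 0.967% of all genes called higher. Necab2, a calcium-binding protein, stood at 0.16 (SE 0.0600, adjusted p = 0.202).

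Further CA3 markers were mostly below 0, unlike Coch. Of 9 measured, 2 were positive and 7 negative, with a median of -0.06 and none called in the authors' deposited table. At an unadjusted p under 0.05 there were 1 higher and 2 lower of the 9, against 8.37% of all genes in either direction. Iyd, an iodotyrosine deiodinase, had the most negative of these values, -0.45 (SE 0.136, adjusted p = 0.0600), and Cpne4, a calcium-dependent membrane-binding copine, stood at -0.12 (SE 0.0450, adjusted p = 0.244) by the authors' deposited table. Taken over all 28 further markers, 12 values were positive and the median was -0.03.

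Genes listed as markers of excitatory neurons in general had values from -0.27 to 0.13. How evenly the subfields express them, and whether other cells do, was not tested. Of 11 such genes none was called and 8 were positive, with a median of 0.05 in the authors' deposited table, while 3 higher and 2 lower had an unadjusted p under 0.05, against 8.37% of all genes. Emx1, a homeobox gene of the dorsal forebrain after which the Cre line is named, stood at -0.27 (SE 0.112, adjusted p = 0.352) and Neurod2, a neuronal transcription factor, at 0.11 (SE 0.050, adjusted p = 0.406) by the authors' deposited table. Dentate granule cell markers had 2 of 10 called, both higher, against 0.967% of all genes called higher, with a median of -0.01. These were Lct, the lactase gene, at 0.86 (SE 0.105, DESeq2 adjusted p = 7.3e-13), and Dsp, a desmosomal linker, at 0.34 (SE 0.0738, DESeq2 adjusted p = 6.7e-04) by the authors' deposited table.

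**Figure D3:**
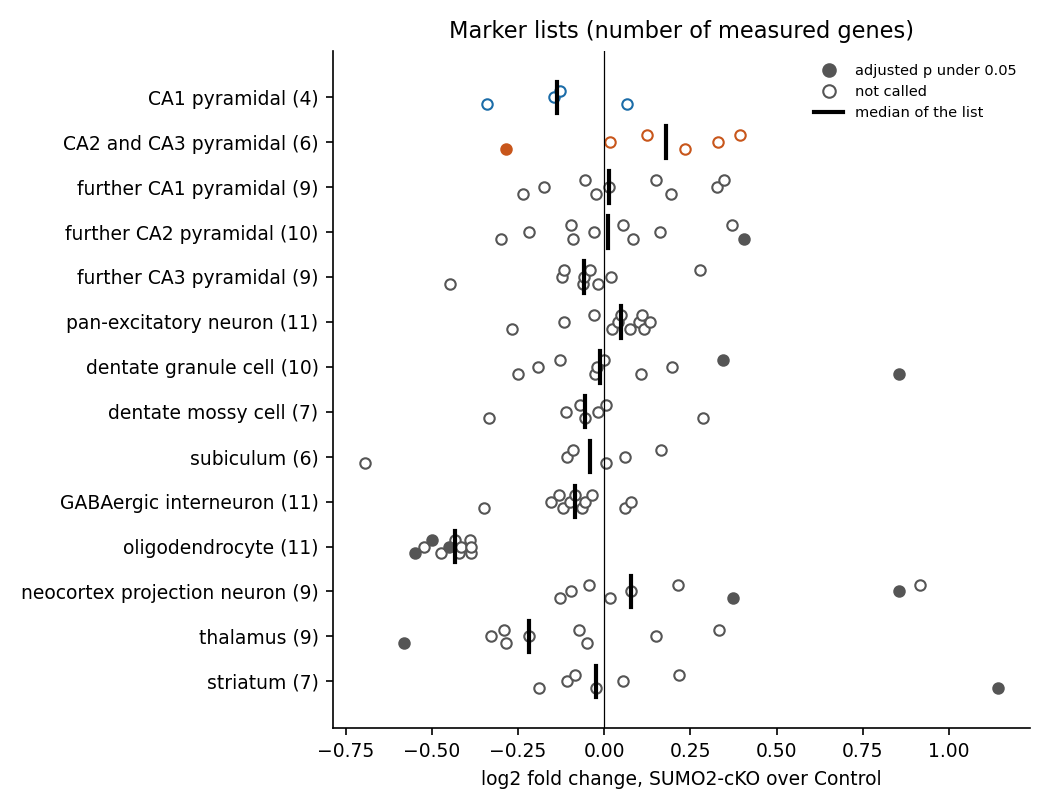
Authors' log2 fold change of SUMO2-cKO over Control (horizontal axis) for the genes of each marker list, with filled points for genes called at an adjusted p under 0.05 and black bars for list medians. The CA1 list has a median of -0.14 and the CA2 and CA3 list one of 0.18, while the lists of further CA1, CA2 and CA3 markers have medians of 0.01, 0.01 and -0.06.

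Markers of other cells and regions that the dissection could hold gave the following values, and their part in the values of the 10 genes was not tested. The 11 GABAergic interneuron genes had a median of -0.09, with 9 below 0 and none called, with Gad1, which makes GABA, at -0.10 (SE 0.0502) and Npy, a neuropeptide, at -0.12 (SE 0.0762) by the authors' deposited table. Mossy cell markers of the dentate hilus had a median of -0.05 over 7 genes with none called, Nmb standing at 0.29 (SE 0.179) and Csf2rb2 at -0.34 (SE 0.286) by the authors' deposited table. Markers of the subiculum, the field next to CA1, had a median of -0.04 over 6 genes with none called, Nts at -0.69 (SE 0.282) and Fn1 at 0.17 (SE 0.123) by the authors' deposited table. In these lists of interneurons, mossy cells and subiculum the DESeq2 fit called no gene. At an unadjusted p under 0.05 there was 1 lower of 11 interneuron genes, 0 of 7 mossy cell genes and 1 lower of 6 subiculum genes. The share over all genes was 8.37% in either direction.

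Tissue next to the hippocampus was represented by lists with called members, against 0.967% of all genes called higher and 0.53% called lower. Neocortical projection neuron markers had a median of 0.08 over 9 genes, with Stac2 at 0.85 (SE 0.0559) and Cux2 at 0.37 (SE 0.0683) called higher in the authors' deposited table. Thalamus markers had a median of -0.22 over 9 genes, with Plekhg1 at -0.58 (SE 0.120) called lower and Rgs16 at -0.29 (SE 0.109) not called in the authors' deposited table. Striatum markers had a median of -0.02 over 7 genes, with Penk at 1.14 (SE 0.249) called higher and Pde10a at -0.08 (SE 0.0568) not called in the authors' deposited table. At an unadjusted p under 0.05 there were 3 higher and 0 lower neocortical genes, 1 higher and 3 lower thalamic genes and 1 higher and 0 lower striatal genes, against 8.37% of all genes in either direction. Several of the 10 genes, Wfs1 and Pcp4 among them, are also expressed in such regions.

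By position, the 10 markers lie on 9 chromosomes, with Mpped1 and Amigo2 both on chromosome 15. The 23 other measured genes within 1 Mb of Bok had a median log2 fold change of -0.01 and none was called, and the nearest, Thap4, stood at 0.01 (SE 0.0978) by the authors' deposited table. Around 9 of the 10 markers no neighbour within that distance was called. Of 254 neighbours summed over the markers 2 were called, against 1.5% of all genes. Both lie near Rgs14, which has 45 neighbours, and were Tspan17 at 0.27 and Gprin1 at 0.23 by the authors' deposited table. The 45 had a median of 0.05, and 33 of them were positive, against 49.9% of all genes. The part of position in the value of Rgs14 was not tested.

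Read in the sense direction, transcripts of these genes are mostly distinct in sequence. For 8 of the 10 markers no 50-base window of the annotated transcripts occurs in that direction in transcripts of another gene. Overlaps with genes on the opposite strand could not appear in this count. In Rgs14 0.637% of the windows are shared. In Pcp4 17.5% are shared, all with a separate Igsf5 entry of the annotation that runs through Pcp4 on the same strand and is not listed in the authors' deposited table. On the opposite strand the annotated span of Amigo2 overlaps that of Pced1b by 181 bases, Pou3f1 overlaps the antisense gene Gm2164 by 363 bases, and Map3k15 overlaps Pdha1 by 1143 bases and the pseudogene Gm15194 by 434 bases. Map3k15 also spans a pseudogene on its own strand, Gm8682, over 498 bases. These overlaps are of whole gene spans, and overlap of exons was not checked. The library kit keeps the strand, but whether the counting used it is not stated. Whether Amigo2, Pou3f1 and Map3k15 gain or lose reads through these partners is therefore not known. Pced1b stood at 0.31 (SE 0.141) and Pdha1 at -0.01 (SE 0.0302) by the authors' deposited table, neither called.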

How the data were processed

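RNA of 4 SUMO2-cKO and 4 Control hippocampi was sequenced after a stranded mRNA library kit, per the labels. Tools in the submitters' processing notes are STAR, HTSeq, DESeq2, cutadapt and Trim Galore; their versions and roles, the build, the annotation and the strand setting are not stated there. For each gene the authors deposited, per the file headers, a Wald statistic (a score in SE units), the log2 fold change, and p-values before and after adjustment. A further 8 columns of values per sample carry names that match no label and were used in no step, so depth, values per sample and a fit of the samples are not analysed here, and precision is known only through the SE.

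The SE is the ratio of log2 fold change to statistic, and 95% intervals are normal. Normal p-values matched the deposited ones within 2.8e-15, and Benjamini-Hochberg adjustment over 17171 genes matched theirs within 9.6e-15. The adjustment was tested on simulated data. Of the identifiers 16955 are in GENCODE M21 (GRCm38), used for coordinates and transcript windows, and 216 are not.

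The markers and lists were chosen with earlier results of these data known. All 10 markers are named. From each other list every called gene is named, or, where fewer than 2 were called, the 2 with the smallest p. Thap4, Tspan17, Gprin1, Igsf5, Pced1b, Pdha1, Gm2164, Gm15194 and Gm8682 are named by position. No test was made over a list. Alternatives were other thresholds and other sets of genes for the adjustment. Computation used Python 3.11.15 with pandas 2.3.3, numpy 2.4.6, matplotlib 3.10.9 and scipy 1.17.1.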

Additional observations from a re-analysis of the deposited data

How the results depend on the processing

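Requiring a fold of at least 1.5 left 67 of the 257 called genes (56 of them higher) and Bonferroni left 79 (64 of them higher), and the 1 called marker, Bok, became 0 in both; stricter thresholds lower such counts by construction. Bok was called at an adjusted p under 0.1, among coding genes only (adjusted p = 0.0245) and among genes with an SE of at most 0.25 (0.0211). The other 9 markers were not called under any of these 5 settings. The CA1 median ran from -0.15 to -0.13 and the median of CA2 and CA3 from 0.12 to 0.23 when each marker was left out in turn. No paired analysis was possible because no column name could be tied to a replicate number. Leaving out libraries, the pseudocount, filters on low values and other tools were planned but need sample columns, so they were not run. Depth limits are seen only in the SE.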
